A study of Mus musculus with 6 samples.

Results

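Described here are 10 genes of the methionine cycle and of choline-derived one-carbon metabolism in the liver of pregnant mice: *Mat1a*, *Gnmt*, *Ahcy*, *Bhmt*, *Bhmt2*, *Cbs*, *Cth*, *Pemt*, *Nnmt* and *Chdh*. They were chosen by symbol, as enzymes of this pathway, with earlier results of these data known. Each symbol matched 1 of the 56691 Ensembl genes of the deposited table. Liver RNA of 6 female mice was sequenced, 3 of the KPF group (hChrebp-KO) and 3 of the WPF group, the controls. Both groups carried the floxed *Chrebp* allele, were pregnant, and received HFrD (70% fructose, 10 kcal% fat) from Day 0 until they were killed on Day 17. Only KPF carried the Alb-Cre transgene, which acts in hepatocytes, so that the effects of the Cre and of the deletion cannot be told apart. The labels call the WPF genotype WT, the study's methods *Chrebp* flox/flox, and the age of the dams is not given in the sources used here.

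In the methionine cycle, methionine is turned into S-adenosylmethionine (SAM), the methyl donor of the cell, and the homocysteine left after a methyl transfer is either methylated back to methionine or drained into cysteine by transsulfuration. The liver is a main site of the body's methionine metabolism. It also spends SAM to make phosphatidylcholine from phosphatidylethanolamine, and it regains methyl groups from choline through betaine. Phosphatidylcholine is a coat lipid of lipoproteins and lipid droplets, which ties this pathway to hepatic fat export.

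Counted reads per library ranged from 10694496 to 11567941 in KPF and from 12988865 to 14496630 in WPF. Expression is given as CPM, a gene's reads as a share of the library's total after scaling by edgeR's TMM factors (0.888 to 1.18), and levels of different genes are compared only as FPKM, which also corrects for exonic length. *Mlxipl*, the gene of ChREBP, stood at 182, 709 and 860 CPM in KPF 1, 2 and 3 and at 974, 1277 and 891 CPM in WPF 2, 3 and 4, with a log2 fold change of -0.84 (SE 0.53, adjusted p = 0.584, edgeR). Reads were counted over the whole gene, of which the deletion removes 1 exon, so this is a weak check of the genotype. The ChREBP targets *Fasn* and *Pklr* were at 149 to 178 and 11.3 to 18.6 CPM in KPF, and WPF 4, at 245 and 24.9 CPM, stood much closer to KPF than WPF 2 and WPF 3 did, at 2113 to 2574 and 139 to 151 CPM. KPF 2 stood apart by its striated muscle genes, whose sum over 5 markers was 3006 CPM against 4.63 to 10.6 CPM in the other libraries. Of the hepatocyte markers, *Alb* stood at 65832 CPM or more in every library. Others varied more between libraries, with *Cps1* from 114 CPM in KPF 1 to 444 CPM in KPF 2. *Tat* ran from 224 CPM in KPF 1 to 994 CPM in KPF 3.

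The groups were compared with the quasi-likelihood test of edgeR, applied to 10866 genes whose FPKM averaged 1 or more, and all 10 members were among these. A gene was called when its unadjusted p was under 0.05 and it differed by 1.5-fold or more. By this rule *Nnmt* was higher and *Pemt* lower in KPF, and the other 8 members were not called. In all, 2 of 10 members (20%) were called, beside 9.81% of all tested genes, 5.83% of which were higher and 3.98% lower. With 10 genes, a share of this size rests on 2 calls and says nothing particular to the pathway. By the p limit alone 3 of 10 members passed, *Nnmt* higher and *Pemt* and *Chdh* lower, beside 6.29% of all tested genes higher and 4.54% lower. None of these 10866 genes passed an adjusted p of 0.05 in edgeR (1176 passed the unadjusted limit). Without the expression filter edgeR gave 286 such genes of 26984, without WPF 4 it gave 5, DESeq2 gave 156 and limma on log2(FPKM + 1) gave 0. The smallest adjusted p of any member under the 14 alternatives was 0.0756, for *Nnmt* in DESeq2. With 3 dams a group, an exact permutation test cannot go below p = 0.1 (two-sided).

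The groups did not overlap for 4 members, *Mat1a* and *Nnmt* with every KPF library above every WPF library and *Pemt* and *Chdh* with every KPF library below. Such separation was found for 15.7% of all tested genes, 7.55% with KPF above and 8.15% with KPF below. The median log2 fold change of the members was 0.14, with 5 positive and 5 negative, beside a median of 0.02 over all tested genes. The members thus showed no common direction.

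**Figure D1:**
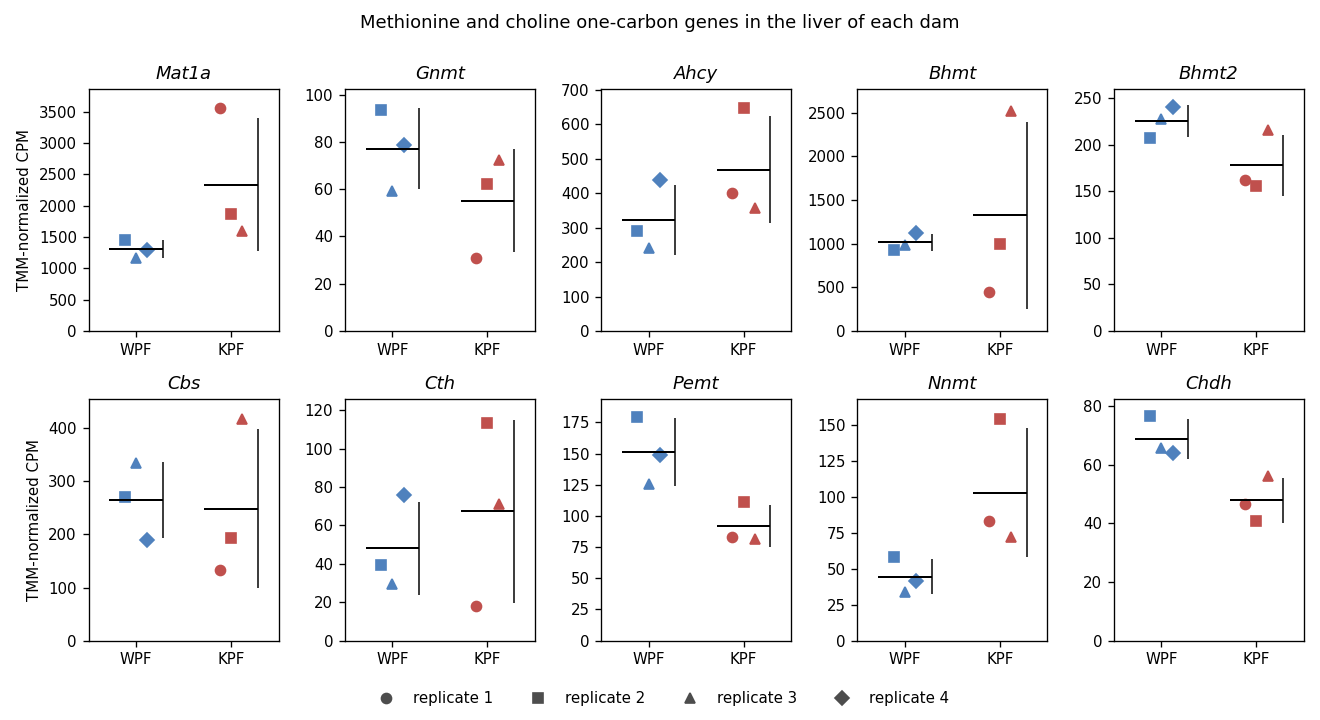
TMM-normalized CPM (vertical axes from 0) of the 10 genes in the 3 WPF (blue) and 3 KPF (red) livers; symbols mark the replicate number, horizontal bars the group mean and vertical bars the SD. The groups are apart for Mat1a, Pemt, Nnmt and Chdh, and for Bhmt, Cbs and Cth the KPF points lie on both sides of the WPF points.

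The abundance of the members differed widely. In WPF, *Mat1a* had the highest level, 388 ± 40.4 FPKM (mean ± SD, n = 3), followed by *Bhmt* with 184 ± 42.6, *Ahcy* with 122 ± 51.8, *Bhmt2* with 95.5 ± 20.1, *Pemt* with 73.7 ± 9.30 and *Gnmt* with 65.6 ± 11.9 FPKM. Below them came *Cbs* with 36.4 ± 9.95, *Nnmt* with 28.6 ± 5.06, *Cth* with 18.4 ± 11.3 and *Chdh* with 11.4 ± 0.57 FPKM. Only *Mat1a* over *Bhmt* and *Gnmt* over *Cbs* were neighbours in this order whose ranges over the 3 libraries did not overlap. In KPF the order was the same for the first 4 genes, and *Nnmt* followed at rank 5, with 62.4 ± 29.5 FPKM, ahead of *Gnmt* (42.9 ± 15.7) and *Pemt* (41.5 ± 9.18), although its range overlapped those of both of its neighbours. *Chdh* was again the lowest, with 7.24 ± 0.79 FPKM.

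*Mat1a* (ENSMUSG00000037798) encodes the methionine adenosyltransferase of adult liver, which makes SAM. In the coordinates of the table (GRCm39 in the submitters' processing notes) it lies on the plus strand of chromosome 14 from 40826992 to 40846369. It was counted at 3559, 1861 and 1591 CPM in KPF 1, 2 and 3 and at 1458, 1168 and 1297 CPM in WPF 2, 3 and 4. KPF 1 stood far above all others, whereas KPF 3 was only slightly above WPF 2. This gave a log2 fold change of 0.84 (SE 0.36, 95% interval -0.01 to 1.69), or 1.79-fold higher in KPF (unadjusted p = 0.0520, adjusted p = 0.464, edgeR). Without KPF 1 it was 0.40. It met both limits of the call without KPF 2, at 0.98 (unadjusted p = 0.0429, edgeR), and without KPF 3, at 1.049 (unadjusted p = 0.0294, edgeR). *Mat2a*, the form of the enzyme found in most other tissues, was at 53.5, 57.7 and 64.6 CPM in KPF, against 53.3, 52.4 and 55.3 CPM in WPF, with a log2 fold change of 0.13 (95% interval -0.32 to 0.57).

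Of the SAM-consuming members, *Nnmt* (ENSMUSG00000032271, minus strand of chromosome 9, 48503177 to 48516453) encodes nicotinamide N-methyltransferase, which methylates nicotinamide. It was counted at 82.7, 154 and 71.7 CPM in KPF 1, 2 and 3 and at 57.8, 33.6 and 41.7 CPM in WPF 2, 3 and 4. KPF 2 was the highest, and the lowest KPF library exceeded the highest WPF library. The log2 fold change was 1.21 (SE 0.36, 95% interval 0.37 to 2.05), or 2.32-fold higher in KPF (unadjusted p = 0.0106 and adjusted p = 0.430 in edgeR's test, exact two-sided permutation test p = 0.1). It met both limits of the call under each of the 14 alternatives, with the smallest value, 0.80, without KPF 2.

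Of the marker sums of other cell types, only that of stellate cells and fibroblasts kept the groups apart as *Nnmt* did. The sum of sinusoidal endothelial cell markers overlapped (85.4 to 89.6 CPM in KPF, 80.9 to 96.4 CPM in WPF). So did that of Kupffer cell markers (118 to 184 CPM in KPF, 133 to 239 CPM in WPF), and those of cholangiocytes and erythroid cells. The sum of 8 stellate cell and fibroblast markers was 424, 720 and 177 CPM in KPF 1, 2 and 3 and 107 to 134 CPM in WPF, and 5 of the 8 were called higher. Most of the sum in KPF 2 was *Des*, the muscle and stellate cell filament desmin, at 493 CPM against 54.5 in KPF 1 and 10.2 in KPF 3. Without *Des* the sum was 369, 228 and 167 CPM in KPF 1, 2 and 3 and 96.6 to 125 CPM in WPF, with *Reln*, *Col1a1*, *Col1a2* and *Col3a1* called higher (*Des*, like *Alb* in the hepatocyte sum, was left out after the values were seen). KPF still stood above WPF, but KPF 1 was then the highest library, whereas *Nnmt* was highest in KPF 2. The remaining markers of this list, *Lrat*, *Dcn* and *Pdgfrb*, were not called and overlapped between the groups. *Lrat* tended lower, at 5.99, 5.38 and 4.48 CPM in KPF and 6.57, 9.18 and 4.51 CPM in WPF. *Dcn* was at 114, 36.8 and 52.9 CPM in KPF and 30.7, 37.5 and 48.9 CPM in WPF. The sum of 6 adipocyte markers was 44.9, 57.5 and 10.03 CPM in KPF and 6.53 to 12.7 CPM in WPF, with KPF 3 below WPF 2, and both of its tested markers, *Cfd* and *Fabp4*, were called higher. *Cfd* alone did keep the groups apart, at 4.25, 17.5 and 1.27 CPM in KPF 1, 2 and 3 and 0, 0.14 and 0 CPM in WPF. Like *Nnmt*, it was highest in KPF 2. *Fabp4*, which made up most of the sum, overlapped, at 35.1, 36.6 and 7.79 CPM in KPF and 11.9, 7.97 and 4.93 CPM in WPF. Of the adipocyte markers, *Lep* had 0 reads in every library, and *Adipoq* had 3, 14 and 0 reads in KPF and 0, 3 and 0 in WPF. The striated muscle genes were high in KPF 2 alone, which was also the library with the most *Nnmt*. The part of these cells in the difference in *Nnmt* was not tested. In bulk liver, more cells of one type and more RNA per cell cannot be told apart.

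**Figure D2:**
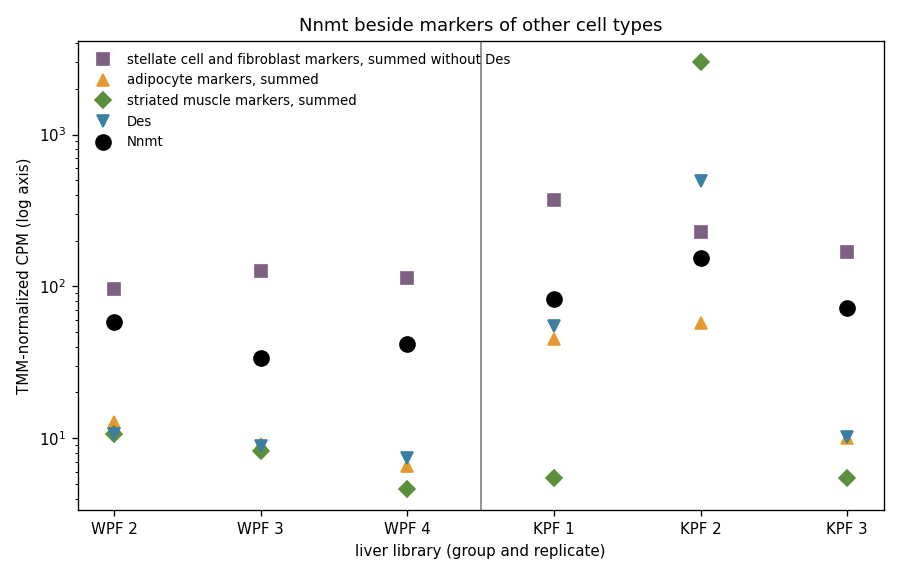
Nnmt (black), Des, and the summed CPM of markers of stellate cells and fibroblasts (without Des), adipocytes and striated muscle in each liver library, on a log axis. Nnmt, Des and the muscle sum were highest in KPF 2, whereas the stellate cell and fibroblast sum was highest in KPF 1, and each KPF library exceeded each WPF library for Nnmt and for that sum.

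*Pemt* (ENSMUSG00000000301, minus strand of chromosome 11, 59861440 to 59937315) encodes phosphatidylethanolamine N-methyltransferase, which uses SAM to make phosphatidylcholine in hepatocytes. It was counted at 83.4, 111 and 81.4 CPM in KPF 1, 2 and 3 and at 179, 125 and 149 CPM in WPF 2, 3 and 4. The groups were apart, but KPF 2 and WPF 3 were close to each other. The log2 fold change was -0.72 (SE 0.25, 95% interval -1.31 to -0.13), or 1.64-fold lower in KPF (unadjusted p = 0.0235 and adjusted p = 0.430 in edgeR's test). *Pemt* lost its call without KPF 1 (log2 fold change -0.65, unadjusted p = 0.0654, edgeR), without KPF 3 (-0.64, unadjusted p = 0.0677) and without WPF 2 (-0.58, unadjusted p = 0.0914). WPF 4, which resembled KPF in *Fasn* and *Pklr*, had *Pemt* between WPF 3 and WPF 2. The sum of 8 hepatocyte markers was 81223 to 107669 CPM in KPF and 105008 to 174130 CPM in WPF, with 0 of 8 called. Most of it was *Alb*, and without *Alb* the sum overlapped widely, at 12160 to 20940 CPM in KPF and 13285 to 23439 CPM in WPF. With and without *Alb* it was highest in WPF 2, which also had the most *Pemt*. Without *Alb*, KPF 1 came next at 20940 CPM, with *Pemt* at 83.4 CPM. The part of hepatocyte content in the difference in *Pemt* was not tested.

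Since ChREBP binds carbohydrate response elements, pairs of E-box-like sites 5 bases apart, the 250 bases before the RefSeq start sites (GRCm38.p6) were searched for CACGNG followed after 5 bases by CNCGNG and for the E-box CACGTG on both strands. *Pemt* was chosen for printing because it was the member called lower and has a pair of start sites, *Cbs* because it held the single E-box found, and *Pklr* because it holds a known element. Capitals mark a match, and positions count backwards from the base before the start as -1.
Pemt, chr11:60040189-60040438, minus strand: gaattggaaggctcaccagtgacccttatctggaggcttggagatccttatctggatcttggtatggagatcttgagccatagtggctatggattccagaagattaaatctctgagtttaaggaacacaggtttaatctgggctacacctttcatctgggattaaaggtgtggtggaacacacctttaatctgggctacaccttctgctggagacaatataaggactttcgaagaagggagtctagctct
Pemt, chr11:60037006-60037255, minus strand: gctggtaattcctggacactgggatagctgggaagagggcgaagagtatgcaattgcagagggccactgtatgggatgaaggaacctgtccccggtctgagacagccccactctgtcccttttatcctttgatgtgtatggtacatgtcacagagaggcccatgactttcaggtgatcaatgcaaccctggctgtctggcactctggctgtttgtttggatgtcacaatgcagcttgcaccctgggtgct
Cbs, chr17:31637206-31637455, minus strand: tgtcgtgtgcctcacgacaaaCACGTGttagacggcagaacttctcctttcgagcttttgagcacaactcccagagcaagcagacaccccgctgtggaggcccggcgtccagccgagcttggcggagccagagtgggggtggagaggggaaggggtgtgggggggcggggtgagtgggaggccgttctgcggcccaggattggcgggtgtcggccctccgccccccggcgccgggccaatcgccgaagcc
Pklr, chr3:89136373-89136622, plus strand: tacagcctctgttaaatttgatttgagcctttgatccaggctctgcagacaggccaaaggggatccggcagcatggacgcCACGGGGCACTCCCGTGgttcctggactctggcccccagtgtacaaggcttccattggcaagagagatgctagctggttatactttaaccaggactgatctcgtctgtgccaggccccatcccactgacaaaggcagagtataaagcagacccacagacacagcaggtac
The paired pattern was found in the printed *Pklr* window from -170 to -154, and in 0.28% of all 32851 windows. The other *Pklr* window (chr3:89135892-89136141, not printed) did not hold it. None of the 10 windows of the 7 members in the RefSeq table (*Gnmt*, *Ahcy*, *Bhmt*, *Bhmt2*, *Cbs*, *Pemt* and *Chdh*) held it. The E-box was found in *Cbs* from -229 to -224, and in 6.02% of all windows. *Mat1a*, *Nnmt* and *Cth* were not matched. With the paired pattern in 0.28% of all windows, its absence from 10 says little about these genes. The search covers only these letters in these windows.

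*Gnmt* (ENSMUSG00000002769) encodes glycine N-methyltransferase, which disposes of excess SAM by methylating glycine. It was counted at 30.9, 62.0 and 72.5 CPM in KPF 1, 2 and 3 and at 93.4, 59.3 and 78.9 CPM in WPF 2, 3 and 4. KPF 1 was the lowest library, and the rest of KPF overlapped with WPF. With a log2 fold change of -0.48, *Gnmt* was not called (95% interval -1.30 to 0.33, adjusted p = 0.630, edgeR). It was -0.20 without KPF 1 and -0.73 without KPF 3.

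*Ahcy* (ENSMUSG00000027597) encodes the hydrolase that splits S-adenosylhomocysteine, the product of each methyl transfer, into homocysteine and adenosine. It stood at 402, 648 and 358 CPM in KPF 1, 2 and 3 and at 291, 242 and 438 CPM in WPF 2, 3 and 4. KPF 2 was the highest and WPF 4 was above the remaining KPF libraries, so the groups overlapped. Its log2 fold change was 0.54 (95% interval -0.27 to 1.35, adjusted p = 0.595, edgeR), and it was 0.23 without KPF 2 and 0.81 without WPF 4. *Gm4737*, which shares 1647 stretches of 100 bases with *Ahcy* transcripts in GENCODE M21, had 125 to 432 reads per library against 3319 to 7374 for *Ahcy*, and reads could have been split between them.

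Homocysteine is methylated back by *Bhmt* (ENSMUSG00000074768), betaine-homocysteine methyltransferase, which takes the methyl group from betaine. *Bhmt* stood at 448, 999 and 2525 CPM in KPF 1, 2 and 3 and at 933, 985 and 1127 CPM in WPF 2, 3 and 4. The WPF livers were alike, with a coefficient of variation of 9.91%, whereas KPF spread over 81.3%, with KPF 1 below and KPF 3 above every WPF library. The log2 fold change of 0.38 had an interval from -0.93 to 1.70 (95%, adjusted p = 0.819, edgeR), and turned to -0.49 without KPF 3.

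*Bhmt2* (ENSMUSG00000042118), its neighbour on chromosome 13, encodes a related enzyme that takes the methyl group from S-methylmethionine. It stood at 162, 156 and 216 CPM in KPF 1, 2 and 3 and at 207, 228 and 241 CPM in WPF 2, 3 and 4. KPF 3 lay between WPF 2 and WPF 3, and the other KPF libraries were below all of WPF. *Bhmt2* was not called, with a log2 fold change of -0.34 (95% interval -0.90 to 0.22, adjusted p = 0.625, edgeR). The coding sequences of *Bhmt* and *Bhmt2* were identical at 75.3% of aligned bases, and their longest shared run was 59 bases, shorter than a read of 150 bases. It is shown because it bounds how far reads of the pair could be confused, with the shared run in capitals and 15 bases on either side.
Bhmt: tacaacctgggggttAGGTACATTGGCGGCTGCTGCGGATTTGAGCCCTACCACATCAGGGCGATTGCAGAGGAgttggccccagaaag
Bhmt2: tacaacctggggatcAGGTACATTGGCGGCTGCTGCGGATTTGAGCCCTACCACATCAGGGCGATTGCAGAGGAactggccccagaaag
*Bhmt* does share longer stretches with *Gm5096*, which had 71 to 190 reads per library against 4639 to 25936 for *Bhmt*.

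*Chdh* (ENSMUSG00000015970, plus strand of chromosome 14, 29730980 to 29762484) encodes choline dehydrogenase, the mitochondrial enzyme that begins the oxidation of choline to the betaine used by *Bhmt*. It was counted at 46.6, 40.8 and 56.1 CPM in KPF 1, 2 and 3 and at 76.8, 65.6 and 64.2 CPM in WPF 2, 3 and 4. The groups did not overlap, and the spread within each was small. KPF was 1.44-fold lower, a log2 fold change of -0.53 (SE 0.21, 95% interval -1.03 to -0.03, unadjusted p = 0.0417, adjusted p = 0.453, edgeR). It thus passed the p limit but not the 1.5-fold limit. It passed both without KPF 3, at -0.66 (unadjusted p = 0.0254, edgeR). Its p was 0.05 or more without any one of the other libraries, from 0.0516 without WPF 4 to 0.132 without WPF 2 (unadjusted p, edgeR). *Cacna1d*, which overlaps *Chdh* on the opposite strand, had 46 to 96 reads per library against 455 to 1081 for *Chdh*.

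Of the transsulfuration enzymes, *Cbs* (ENSMUSG00000024039), cystathionine beta-synthase, condenses homocysteine with serine, and *Cth* (ENSMUSG00000028179), cystathionine gamma-lyase, releases cysteine. *Cbs* stood at 134, 193 and 418 CPM in KPF 1, 2 and 3 and at 271, 334 and 190 CPM in WPF 2, 3 and 4. KPF held both the lowest and the highest library. Its log2 fold change was -0.09 (95% interval -1.14 to 0.95, adjusted p = 0.949, edgeR), and ranged from -0.70 without KPF 3 to 0.21 without KPF 1.

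*Cth* stood at 17.96, 113 and 71.1 CPM in KPF 1, 2 and 3 and at 39.6, 29.5 and 75.6 CPM in WPF 2, 3 and 4. Again KPF held both extremes. Its log2 fold change was 0.48 (95% interval -0.98 to 1.94, adjusted p = 0.794, edgeR), turned to -0.12 without KPF 2 and was 0.96 without WPF 4. *Gm43314*, which overlaps *Cth* on the same strand, had 4, 75 and 45 reads in KPF and 9, 8 and 130 in WPF, and was highest in the libraries with most *Cth* of each group.

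**Figure D3:**
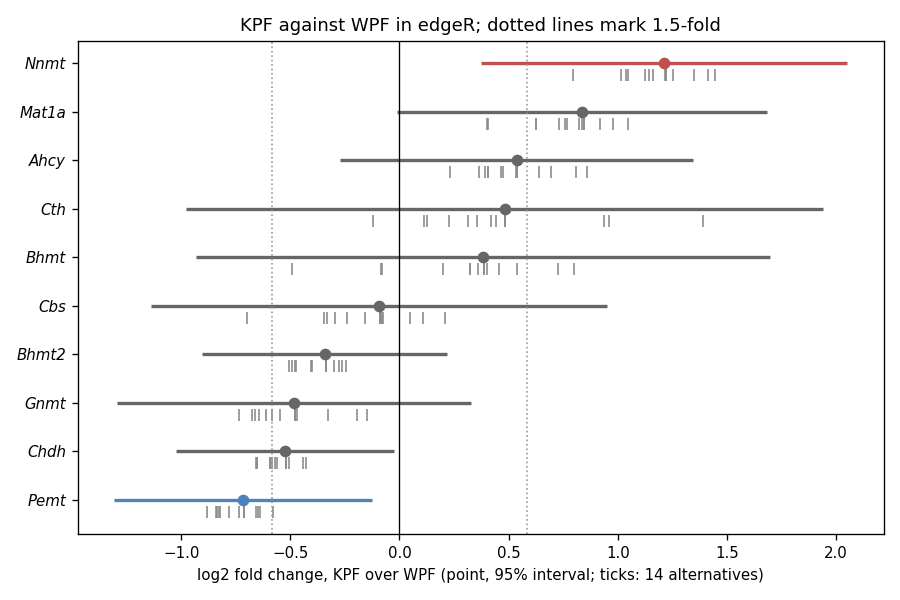
Log2 fold change of KPF over WPF (horizontal axis) for each gene, with the point and 95% interval of edgeR's test and, under it, ticks for the values under the 14 alternatives; colour marks the called genes and dotted lines mark 1.5-fold. Nnmt lies wholly above 0 and Pemt and Chdh wholly below, while Cth, Bhmt and Cbs have the widest intervals.

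The spread between the dams differed among the members. In KPF the coefficient of variation ran from 16.1% for *Chdh* to 81.3% for *Bhmt*, and in WPF from 7.53% for *Bhmt2* to 50.3% for *Cth*. KPF 1 had the lowest value of all 6 libraries for 4 of 10 members, *Gnmt*, *Bhmt*, *Cbs* and *Cth*, and the highest for *Mat1a*. This library also had the least *Mlxipl*, and over all tested genes it was the lowest for 23.3% and the highest for 22.6%, both the largest shares of any library. KPF 2 was the highest for *Ahcy*, *Cth* and *Nnmt*, and KPF 3 for *Bhmt* and *Cbs*. Among the members, the profiles over the 6 libraries that were most alike were those of *Bhmt2* and *Chdh*, with a root mean square difference of 0.17 on the log2 scale after centring, followed by *Pemt* and *Chdh* with 0.30.

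**Figure D4:**
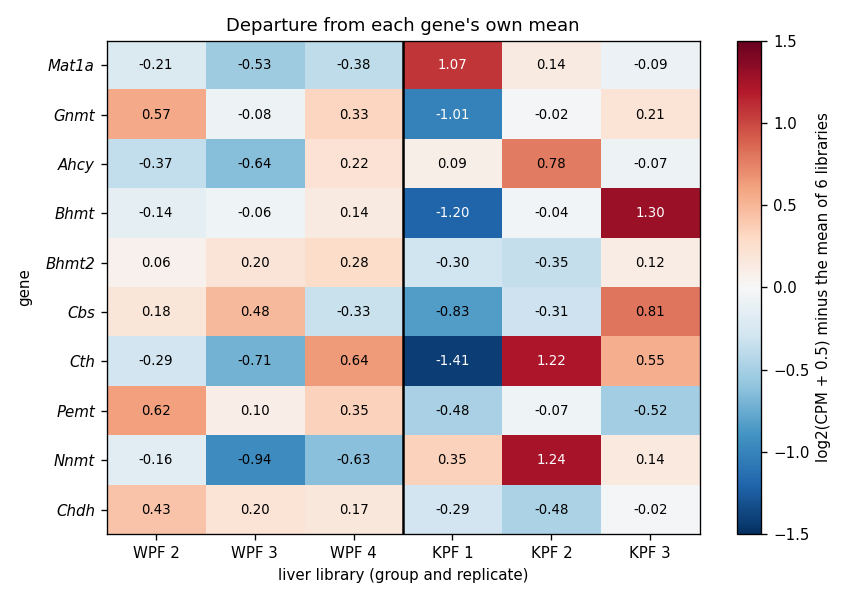
Departure of log2(CPM + 0.5) from the gene's own mean over the 6 libraries, with WPF left and KPF right of the line. KPF 1 is far below the mean for Gnmt, Bhmt and Cth and far above it for Mat1a, whereas Pemt, Nnmt and Chdh split by group.

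Over all tested genes, the profiles nearest to *Pemt* were those of *Tmem9*, *Slc23a2* and *Cyp2d10*, with root mean square differences of 0.089, 0.10 and 0.11 on the log2 scale over the 6 libraries. *Slc23a2* was at 7.82, 11.1 and 7.01 CPM in KPF, against 16.6, 11.8 and 16.6 CPM in WPF. Those nearest to *Nnmt* were *Pgpep1l*, *Gm26621* and a gene without a symbol (ENSMUSG00000121262), at 0.19, 0.20 and 0.20. Few reads lay behind each of these 3. Their ranges were 2.78 to 10.04 CPM for *Gm26621*, 0.85 to 5.74 CPM for *Pgpep1l* and 0.28 to 1.79 CPM for the gene without a symbol.

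Around these 10 genes, 7 lists of 102 genes of neighbouring pathways were examined, of which 92 were tested. 1 gene was called higher and 6 lower in KPF, which makes 7.61% of the lists together, beside 9.81% of all tested genes. The median log2 fold change of the lists together was -0.06.

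In the list of methionine and SAM supply (14 tested, median 0.01), 1 gene was called. *Adk*, the kinase that removes the adenosine released by *Ahcy*, stood at 166, 130 and 202 CPM in KPF 1, 2 and 3 and at 325, 311 and 227 CPM in WPF 2, 3 and 4, without overlap. Its log2 fold change was -0.79 (SE 0.28, adjusted p = 0.430, edgeR).

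In the folate cycle list (18 tested, median -0.04) the called gene was *Slc19a1*, the reduced folate carrier, at 3.57, 6.99 and 6.23 CPM in KPF and 11.7, 7.90 and 10.6 CPM in WPF (log2 fold change -0.84, adjusted p = 0.438, edgeR). The list of choline and betaine oxidation had no called gene of 8. There the smallest p was that of *Slc6a12*, a betaine transporter, with 114 to 132 CPM in KPF and 83.9 to 114 CPM in WPF, the lowest of KPF just above the highest of WPF, and a log2 fold change of 0.36 (adjusted p = 0.587, edgeR). In the list of phospholipid head group synthesis (11 tested, median -0.24), 9 of 11 genes were negative, beside 5281 of all 10866 tested. Only *Etnk1*, an ethanolamine kinase at the start of phosphatidylethanolamine synthesis, was called there, with a log2 fold change of -0.68 (adjusted p = 0.447, edgeR). It was at 24.2, 18.02 and 34.5 CPM in KPF, against 38.0, 47.4 and 37.4 CPM in WPF.

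The list of cysteine and sulfur disposal (11 tested, median -0.14) had 2 called genes, both lower. *Ethe1*, a mitochondrial dioxygenase of sulfide breakdown, stood at 7.82, 11.6 and 13.1 CPM in KPF, against 32.3, 22.1 and 15.1 CPM in WPF, without overlap (log2 fold change -1.09, adjusted p = 0.430, edgeR). *Csad*, which makes hypotaurine on the way to taurine, stood at 44.0, 11.6 and 19.4 CPM in KPF, against 89.7, 39.4 and 48.7 CPM in WPF, and KPF 1 exceeded WPF 3 (log2 fold change -1.24, adjusted p = 0.456, edgeR).

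Among 17 other SAM-dependent methyltransferases (median -0.09) *As3mt*, the arsenite methyltransferase, was called lower, with 26.5, 21.0 and 29.0 CPM in KPF and 35.7, 43.9 and 37.6 CPM in WPF (log2 fold change -0.62, adjusted p = 0.430, edgeR). Among 13 genes of nicotinamide use beside *Nnmt* (median 0.07) *Nmnat1*, a nuclear enzyme of NAD synthesis, was called higher, with 26.2, 32.9 and 20.5 CPM in KPF and 18.5, 15.7 and 18.8 CPM in WPF (log2 fold change 0.59, adjusted p = 0.434, edgeR).

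**Figure D5:**
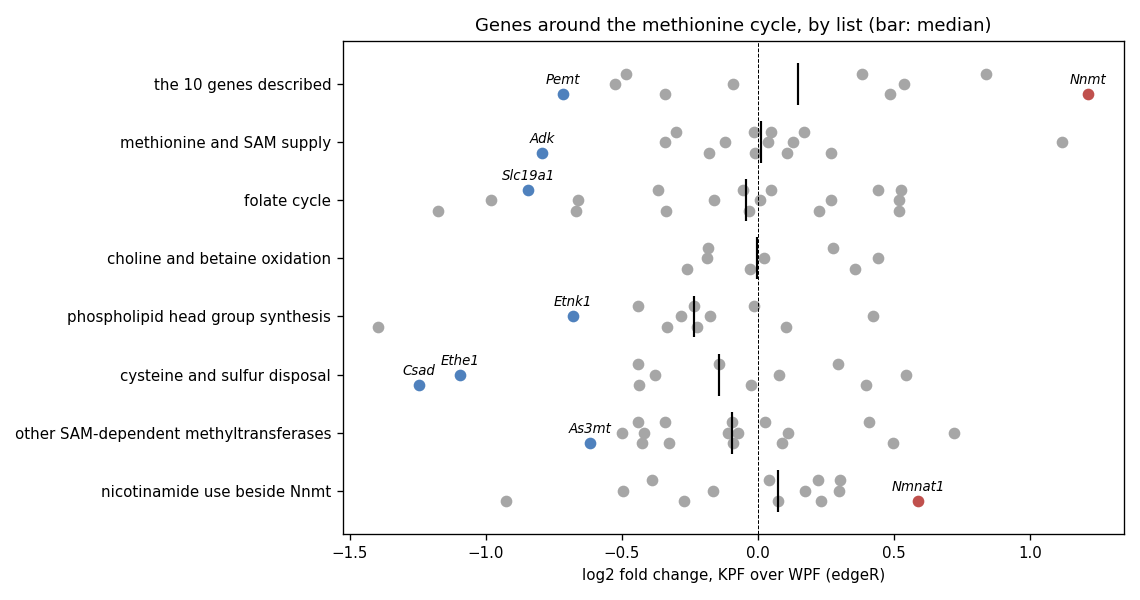
Log2 fold change of KPF over WPF (horizontal axis) for each tested gene of the 10 described and of the 7 neighbouring lists; red and blue mark genes called higher and lower, grey the others, and bars the list median. Each list has called genes on 1 side at most, except the 10 genes themselves with Nnmt higher and Pemt lower, and the list medians lie between -0.24 and 0.14.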

How the data were processed

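Liver poly(A) RNA of 3 KPF and 3 WPF dams was sequenced in paired reads of 150 bases. The authors deposited raw counts per Ensembl gene and FPKM values in 1 table. The submitters' processing notes name cutadapt 1.9.1, HISAT2 2.2.1, HTSeq 0.6.1, DESeq2 and GRCm39, and the strand setting is not given in the sources used here. All 340146 deposited FPKM values were within 0.01 of the count divided by exonic length and library total. Symbols were matched for 52073 of 56691 gene IDs from reference gene tables.

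Genes whose FPKM averaged 1 or more were tested with edgeR 4.0.16 (R 4.3.3, TMM, quasi-likelihood, Benjamini-Hochberg adjustment over 10866 genes). Alternatives used edgeR with other scalings and filters, DESeq2 1.42.0 and limma 3.58.1 on log2(FPKM + 1) and log2(FPKM + 0.1). The fit was tested on simulated counts. Chi-square per gene between replicates was 49.1 or more, far above sampling noise, so each library was counted as its own sample. The members and lists were chosen with earlier results of these data known. All 10 members were named, and of the other lists the called genes, or the one with the smallest p. The depth, 10694496 to 14496630 counted reads, gave every member 186 reads or more per library.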

Additional observations from a re-analysis of the deposited data

How the results depend on the processing

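Of the 10 members, *Mat1a*, *Gnmt*, *Ahcy*, *Bhmt2*, *Pemt*, *Nnmt* and *Chdh* kept their sign under all 14 alternatives. *Nnmt* kept its call under each, with log2 fold changes from 0.80 to 1.45 and adjusted p from 0.0756 (DESeq2) to 0.820. *Pemt* kept its call under 10 of 14, with -0.88 to -0.58. *Chdh* gained a call under 5 (library totals, no expression filter, limma with either pseudocount, and without KPF replicate 3) and *Mat1a* under 4 (DESeq2, a minimum mean FPKM of 5, and without KPF replicate 2 or 3). *Bhmt* turned to -0.081 with limma on log2(FPKM + 1), to -0.083 with log2(FPKM + 0.1) and to -0.49 without KPF replicate 3. *Cbs* turned to 0.21, 0.048 and 0.11 without KPF replicate 1, KPF replicate 2 and WPF replicate 3, and *Cth* to -0.12 without KPF replicate 2. Leaving out each library in turn, *Cbs* ran from -0.70 to 0.21 and *Cth* from -0.12 to 0.96. The cause was not tested, apart from the library left out.

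With each library left out in turn, 1 to 3 members were called, 331 to 922 genes were higher, 245 to 712 lower and 0 to 5 passed an adjusted p of 0.05. Against 634 higher and 432 lower genes, library totals gave 371 and 716, a minimum mean FPKM of 5 gave 255 and 205 with fewer genes tested, no filter gave 1576 and 910 with more, limma on log2(FPKM + 1) gave 237 higher, and log2(FPKM + 0.1) gave 288 and 700. Genes at an adjusted p under 0.05 numbered 0 in edgeR, 156 with DESeq2 and 286 without a filter. Of the called genes, the share higher in KPF was 59.5% after TMM scaling, 34.1% on library totals and 30.5% for limma on log2(FPKM + 1), and library totals moved the median log2 fold change of all genes from 0.02 to -0.12.

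Replicate numbers 2 and 3 occur in both groups but mark different dams. Their deviations from the group means correlated at 0.045 and -0.017, which gives no sign of pairing by number but cannot exclude it. In the fit with the replicate block, KPF 1 and WPF 4 have no partner of the same number. Its group difference therefore rests on replicates 2 and 3 alone, so it is a weak check. There *Pemt* lost its call at -0.66 (unadjusted p = 0.0630, edgeR), *Cth* gained one at 1.39 and *Nnmt* stood at 1.25. With this block, 680 genes were higher and 551 lower.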
